A study of Homo sapiens with 6 samples.

Results

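The genes described here are the numbered ZNF genes that H1 human embryonic stem cells express at a moderate or high level, 289 of the 16199 genes in the count table. They were chosen by symbol (ZNF followed by a number) and by a mean of at least 10 CPM, counts scaled to a library of equal size, over all 6 samples. ZNF560 and ZNF492 were left out by the same rule, which also names ZNF677 and ZNF600 for the way they differed between genotypes. The table lists 423 numbered ZNF genes, so 132 others stayed under the minimum. ZNF44 at 9.82 CPM and ZNF610 at 9.91 CPM lay just outside it, and ZNF114 at 10.3 CPM and ZNF500 at 10.4 CPM just inside. The question asked of these genes was whether any of them is switched on or off, gene by gene, between the genotypes.

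H1 is an established human embryonic stem cell line. The study used CRISPR-Cas9 to put S1344L, a cancer hotspot change, into DICER1, the enzyme that cuts microRNAs out of their hairpin precursors. RNA was measured in 2 wild-type samples, 2 samples hemizygous for S1344L and 2 samples homozygous for it. The labels do not say what the second allele of the hemizygous cells holds, nor whether a genotype's samples came from separate clones or cultures. Every p-value therefore measures the spread between these 6 samples alone, and that spread may be technical. Per the labels' protocols the libraries came from total RNA and a TruSeq kit that keeps no strand.

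Most ZNF proteins are C2H2 zinc-finger proteins. Each finger is a short loop held by a zinc ion, and a row of fingers reads a run of DNA bases. Many also carry a KRAB domain, which recruits the corepressor TRIM28 and, through it, the histone methyltransferase SETDB1. In stem cells these proteins are best known for holding transposable elements silent. Their genes multiplied by tandem duplication, so that many lie in clusters on chromosome 19 and resemble each other in sequence.

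A C2H2 finger pattern was found in the coding sequence of 280 of the 288 genes with a coding transcript in GENCODE, with a median of 10 fingers and a maximum of 33 in ZNF462. A KRAB-like pattern was found in 180. Chromosome 19 held 137 of the 289 genes, and chromosome 7, the next in rank, held 20. Repeats make these genes difficult to count: a median of 8.94% of a gene's 31-base exon words occurred in another gene, and 6 genes shared more than 50% of theirs, ZNF593 the most. How the authors' counting treated reads that fit several genes is not given in the sources used here, so values of the most similar genes are uncertain.

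The finger repeats carry another known feature. MicroRNAs of the miR-181 family are known to bind messages of KRAB zinc-finger genes at repeated sites inside the coding sequence. The sequence of hsa-miR-181a-5p, from RefSeq, is shown with its seed (bases 2 to 8) in capitals, followed by 1 coding window from each of 5 ZNF genes with the complement of that seed, TGAATGT, in capitals. The windows show how alike such stretches are in genes of different position, and ZNF12 is included because it held the most matches, 18. All are from GRCh38 and read 5′ to 3′ on the gene's own strand. The ZNF600 window lies at chr19:52766908-52766937 on the minus strand, ZNF677 at chr19:53238074-53238103 (minus), ZNF160 at chr19:53069911-53069940 (minus), ZNF559 at chr19:9342162-9342191 (plus) and ZNF12 at chr7:6692427-6692456 (minus).
hsa-miR-181a-5p: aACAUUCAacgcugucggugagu
ZNF600: ttacaagtgtaaTGAATGTgacaaagcttt
ZNF677: ggagaaaatgtaTGAATGTaatccagttga
ZNF160: ggggaaaatgtaTGAATGTaatcaagttga
ZNF559: agaaaaattctaTGAATGTaaagcatgtgg
ZNF12: aatgaaagctgaTGAATGTagtggatgtgg
In all, 172 of the 288 coding sequences held TGAATGT at least once, ZNF600 in 3 places, ZNF677 in 5, ZNF559 in 6 and ZNF160 in 8. A match is a description of the letters and not a measured site.

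Promoters are shown for 3 genes on which the comparisons turn: ZNF677, with the largest positive difference in hemizygous cells, its neighbour ZNF160, and ZNF90, which was higher in both mutant genotypes. Each run is the 250 bases before the outermost start of the gene in RefSeq (GRCh38.p14), 5′ to 3′ on the gene's strand. Capitals mark the GC box bound by SP and KLF factors, GGGCGG or its complement CCGCCC. ZNF677 lies at chr19:53254874-53255123 (minus), ZNF160 at chr19:53103423-53103672 (minus) and ZNF90 at chr19:20077750-20077999 (plus).
ZNF677: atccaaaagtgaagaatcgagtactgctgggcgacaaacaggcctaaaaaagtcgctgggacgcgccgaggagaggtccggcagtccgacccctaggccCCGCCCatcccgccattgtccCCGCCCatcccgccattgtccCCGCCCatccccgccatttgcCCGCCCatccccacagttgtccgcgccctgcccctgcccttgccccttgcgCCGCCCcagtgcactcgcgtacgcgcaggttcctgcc
ZNF160: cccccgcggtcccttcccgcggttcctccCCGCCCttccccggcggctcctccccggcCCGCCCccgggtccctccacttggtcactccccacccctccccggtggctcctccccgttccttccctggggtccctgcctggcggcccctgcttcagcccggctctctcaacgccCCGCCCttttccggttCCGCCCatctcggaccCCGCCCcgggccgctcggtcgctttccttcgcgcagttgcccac
ZNF90: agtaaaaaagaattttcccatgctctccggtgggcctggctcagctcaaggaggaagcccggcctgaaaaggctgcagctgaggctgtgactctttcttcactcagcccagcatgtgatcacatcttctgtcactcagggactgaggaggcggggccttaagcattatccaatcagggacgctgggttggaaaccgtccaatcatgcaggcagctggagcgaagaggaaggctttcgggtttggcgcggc
ZNF677 and ZNF160 each held 5 GC boxes, with 23 and 26 CpG dinucleotides, and ZNF90 held 0 GC boxes and 9 CpG. RefSeq promoters were matched for 254 of the 289 genes. Of those 254, 65.4% held a GC box on either strand, against 42.2% of all 27305 promoters in the table. The ETS core CCGGAAG was in 29.9%, against 8.78%, the YY1 core GCCATNTT in 6.69%, against 3.93%, and the cyclic AMP element TGACGTCA in 3.54%, against 1.75%, each searched on both strands. CpG dinucleotides numbered a median of 18 per promoter, against 10. These shares describe the promoters and say nothing of factor binding.

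Listed counts summed to between 38164848 and 52924532 per sample, and the 289 genes held 1.18% to 1.26% of them. Levels below are CPM scaled with edgeR's TMM factors. All 12 pluripotent stem cell markers on a fixed list were measured, with a summed level of 10416 to 10893 CPM in wild type, 11234 to 12413 in hemizygous and 10861 to 11480 in homozygous samples. Of the 5 endoderm markers only 1 was in the table, summing to 2.16 CPM at most, and of the 5 trophoblast markers only KRT7, at 10.5 CPM at most. Neural ectoderm markers (4 of 6 measured) summed to 461 to 505 CPM in wild type, 477 to 574 in hemizygous and 418 to 430 in homozygous samples. NES made up most of that sum. ZIC1 stood at 17.9 and 16.3 CPM in wild type, 41.01 and 58.9 in hemizygous and 28.2 and 28.01 in homozygous samples, and FABP7 at 2.99 and 2.99, 4.22 and 5.81, and 5.62 and 8.15 CPM, both wholly above wild type in each mutant genotype. Mesoderm markers (4 of 7) summed to 262 to 278, 338 to 397 and 365 to 381 CPM in the same order, and fibroblast markers (3 of 7) to 775 to 845, 698 to 808 and 622 to 667 CPM. KDR made up most of the mesoderm sum. It stood at 257 and 276 CPM in wild type, 333 and 393 in hemizygous and 376 and 361 in homozygous samples. MIXL1, MESP1 and PDGFRA stayed at 3.07 CPM or less. The mesoderm sum was thus higher in both mutant genotypes than in wild type, and the fibroblast sum was lower in homozygous samples. The part of all these markers in the results below was not tested. PAX6, SOX1, EOMES, COL3A1 and LUM were absent from the table. DICER1 itself was at 169 and 126 CPM in wild type, 118 and 96.4 in hemizygous and 129 and 118 in homozygous samples, and a message level does not check a point change.

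The expressed ZNF genes ranged widely in level but little between samples. Their mean level ran from 10.3 to 405 CPM with a median of 26.8. Per kilobase of exon, the only scale on which genes can be ranked against each other, the median was 5.03 CPM per kb, and ZNF770 (74.7), ZNF146 (60.7), ZNF121 (48.4), ZNF90 (47.0) and ZNF589 (34.8) were the highest. ZNF146 is a protein made almost wholly of fingers, and 10 were found in it. ZNF770 shares 41.5% of its exon words with other loci, so its rank is uncertain.

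The most counted genes differed little between genotypes. ZNF770 stood at 435 and 338 CPM in wild type, 476 and 393 in hemizygous and 431 and 366 in homozygous samples. ZNF207, which encodes BuGZ, a protein that helps chromosomes attach to the spindle, stood at 253 and 260 CPM in wild type, 275 and 260 in hemizygous and 287 and 266 in homozygous samples. ZNF532, a partner of the chromatin reader ZMYND8, stood at 305 and 257, 319 and 300, and 296 and 269 CPM in the same order. For ZNF770 all genotypes overlapped, for ZNF532 both mutant genotypes overlapped wild type but not each other, and for ZNF207 both mutant genotypes lay just above wild type.

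Among the 289 genes, none was switched on or off, but the rule had set ZNF560 aside beforehand. Genes that are off in most samples can also fall under the minimum mean of 10 CPM. A gene was called off in a library when it was under 1 CPM there and at least 10 CPM in another library, and 0 of 289 met this. The lowest value of any of them in any sample was 7.34 CPM, for ZNF699 in hemizygous 2. Among all 10035 genes with a mean of at least 10 CPM, 1 met it, and that is ZNF560, one of the genes the rule leaves out. ZNF560 stood at 19.2 and 18.1 CPM in wild type, 0.730 and 21.9 in hemizygous and 3.68 and 3.69 in homozygous samples, so its largest step lay between the 2 hemizygous samples. ZNF492 was low everywhere, at 2.28 and 1.305 CPM in wild type, 0.365 and 0.323 in hemizygous and 2.56 and 1.99 in homozygous samples.

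**Figure D1:**
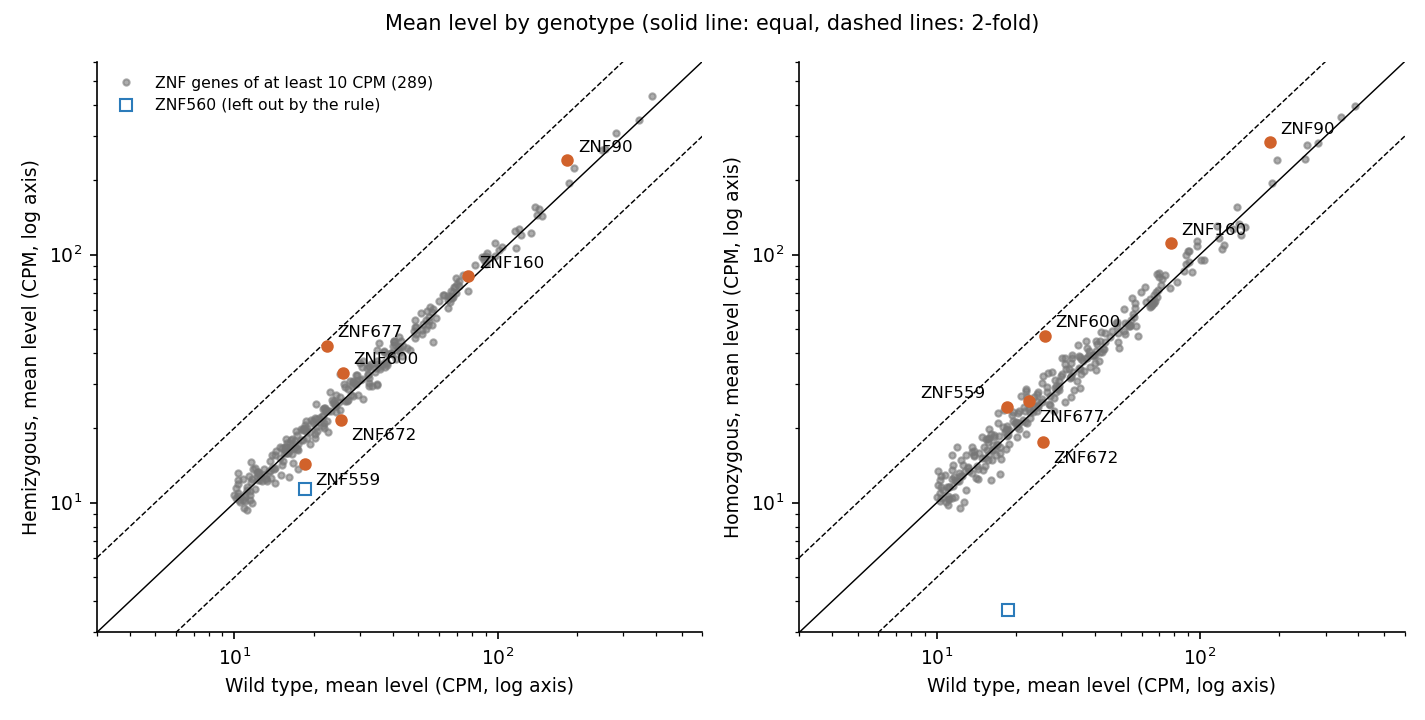
Mean level of each of the 289 expressed ZNF genes in wild type (horizontal axis, CPM, log axis) against hemizygous (left) and homozygous (right) samples, each the mean of 2 samples. Orange points are named, the open square is ZNF560, and the dashed lines mark 2-fold differences; all 289 genes lie between the dashed lines in both panels, and ZNF560 lies below them in the homozygous panel.

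Graded steps were looked for next, as a gap between samples: the lowest sample of the higher genotype divided by the highest sample of the lower genotype. A gap of 2-fold or more was found for 0 of 289 genes in each of the 3 comparisons. Among the 10035 genes with a mean of at least 10 CPM, the share with such a gap was 0.0199% for hemizygous against wild type, 0.0399% for homozygous against wild type and 0% for homozygous against hemizygous, so a count of 0 in 289 is near that background. With a gap of 1.5-fold, 1 ZNF gene was higher in hemizygous than in wild-type samples (ZNF677, background 0.0199%) and 0 were lower (background 0.0299%). In homozygous against wild-type samples 1 was higher (ZNF600, background 0.0598%) and 0 were lower (background 0.14%). Between homozygous and hemizygous samples 0 were higher (background 0.0299%) and 0 were lower (background 0%). ZNF677 and ZNF600 were named in the rule for these differences, so their values are given as a description, and no p-value of these differences is given.

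ZNF677 is a KRAB gene with 10 fingers at chr19:53235381-53254898 (minus strand), known for being silenced by DNA methylation in tumours. Its level was 24.8 and 20.01 CPM in wild type, 47.5 and 38.4 in hemizygous and 27.9 and 23.5 in homozygous samples. Both hemizygous samples lay above the other 4, and the wild-type and homozygous samples overlapped. The log2 fold change was 0.94 ± 0.19 (SE) for hemizygous and 0.20 ± 0.18 for homozygous against wild type, and -0.74 ± 0.18 for homozygous against hemizygous. Of its exon words, 2.52% also lie in the antisense gene AC092070.3, whose reads cannot be told apart from it without strand.

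ZNF600 is a KRAB gene with 18 fingers at chr19:52749942-52786807 (minus strand). It was measured at 26.7 and 24.9 CPM in wild type, 32.3 and 34.7 in hemizygous and 52.1 and 42.2 in homozygous samples. The 3 genotypes did not overlap, and hemizygous samples lay between the others. The log2 fold change was 0.37 ± 0.15 for hemizygous and 0.87 ± 0.15 for homozygous against wild type, and 0.49 ± 0.15 between the mutant genotypes. It shares 12.02% of its exon words with ZNF611, which stood at 10.8 to 11.99 CPM in wild type and 10.1 to 14.9 CPM in homozygous samples. ZNF677 and ZNF600 thus differed in which genotype was highest, each at a little under 2-fold.

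**Figure D2:**
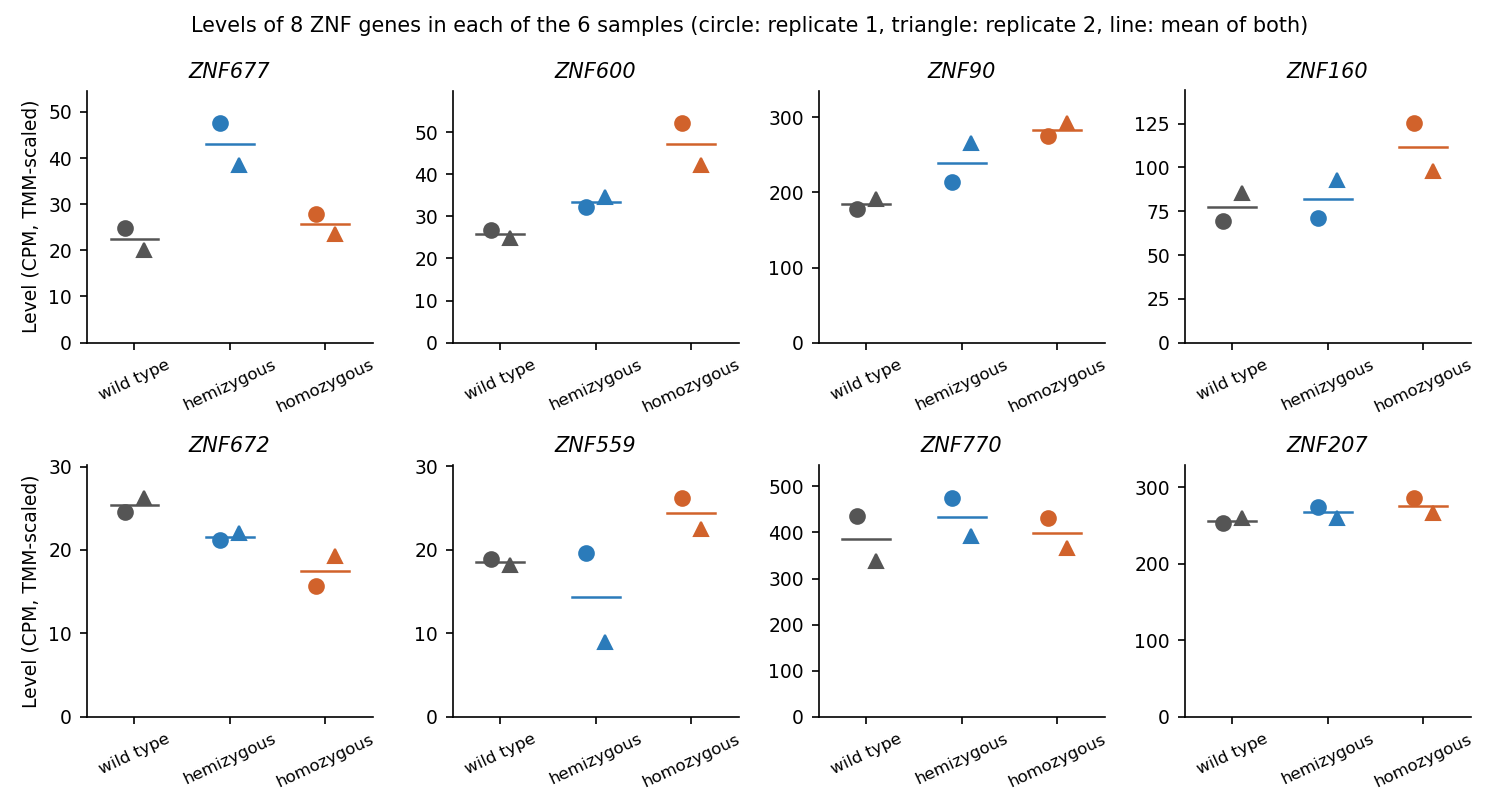
Level (CPM, TMM-scaled) of 8 expressed ZNF genes in each sample, with circles for replicate 1, triangles for replicate 2 and a line at the mean of both; each vertical axis starts at 0. ZNF677 is high in both hemizygous samples (38.4 and 47.5), ZNF600 and ZNF90 are lowest in wild type and highest in homozygous samples, and ZNF559 is low in hemizygous 2 (8.98).

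In the edgeR quasi-likelihood test over all 16199 genes, 0 of the 289 genes passed an adjusted p of 0.05 in any of the 3 comparisons, as did 0% of all genes in each. The smallest adjusted p among them was 1.00 in both comparisons with wild type. At an unadjusted p under 0.05, 4 ZNF genes (1.38%) differed between hemizygous and wild-type samples, against 0.870% of all genes, and all 4 were higher. For homozygous against wild type it was 9 (3.11%, against 2.69%), of which 8 were higher, and for homozygous against hemizygous 2 (0.692%, against 0.765%). These counts hold genes that the rule had named for these differences: ZNF677 in the first comparison, ZNF600 in the second and both in the third. ZNF600 also lay wholly above wild type in the first comparison (log2 fold change 0.37 ± 0.15). The counts are therefore no independent support. DESeq2 called 1 member in hemizygous against wild-type samples (ZNF677), 1 in homozygous against wild-type samples (ZNF600) and 0 between the mutant genotypes. Both are genes the rule had named for these differences, so these calls are no independent support. The limma-voom test called 0 members in each comparison. With the replicate number as a block, edgeR called 0 members in each comparison. DESeq2 with that block called the same genes, and also ZNF90 in homozygous against wild-type samples (adjusted p = 7.72e-05) and ZNF677 between the mutant genotypes. In homozygous against wild-type samples that fit called 126 of all genes, and edgeR with the block called 0. In the hemizygous comparison and between the mutant genotypes it called 23 and 24 of all genes. Without the block DESeq2 called 7, 10 and 10 of all genes in the 3 comparisons. On simulated counts of hemizygous against wild-type samples, 100 genes were changed 2-fold and 100 others 4-fold. edgeR called 50 of the former and 99 of the latter, so this test can miss a 2-fold step. DESeq2 called 80 and 99. False calls over the whole run of 16199 genes numbered 13 for edgeR and 47 for DESeq2. The simulated samples varied independently of their replicate number.

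ZNF90 also differed in both mutant genotypes at an unadjusted edgeR p under 0.05. It is a KRAB gene with 15 fingers on chromosome 19, at 178 and 191 CPM in wild type, 214 and 265 in hemizygous and 275 and 292 in homozygous samples. All 3 genotypes were separated, in the same order as for ZNF600. The log2 fold change was 0.38 ± 0.15 for hemizygous and 0.62 ± 0.15 for homozygous against wild type. ZNF90 shares 30.95% of its exon words with other loci, among them AC011447.3, an antisense gene that overlaps it.

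Among the ZNF genes whose hemizygous and wild-type samples did not overlap, the next largest positive differences were in ZNF680, ZNF695 and ZNF10. ZNF680, a KRAB gene on chromosome 7, stood at 27.6 and 22.9 CPM in wild type, 34.1 and 32.2 in hemizygous and 31.7 and 32.8 in homozygous samples. ZNF10, also called KOX1, is the source of the KRAB domain used in engineered repressors, and stood at 11.9 and 11.2, 15.8 and 13.4, and 14.03 and 14.3 CPM. In both genes the mutant genotypes overlapped each other and lay above wild type. The log2 fold change in hemizygous samples was 0.39 ± 0.14 for ZNF680, 0.35 ± 0.18 for ZNF695 and 0.34 ± 0.16 for ZNF10. The largest negative differences without overlap were smaller: ZNF71 (-0.26 ± 0.16), ZNF114 (-0.25 ± 0.17), ZNF672 (-0.23 ± 0.15), ZNF615 (-0.23 ± 0.18), ZNF740 (-0.21 ± 0.12) and ZNF362 (-0.14 ± 0.13).

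In homozygous against wild-type samples the largest positive differences after ZNF600 and ZNF90 were in ZNF160, ZNF594, ZNF558 and ZNF26. ZNF160, a KRAB gene with 20 fingers near ZNF677, stood at 69.4 and 85.4 CPM in wild type, 70.9 and 92.8 in hemizygous and 125 and 97.8 in homozygous samples. Its homozygous samples lay above the others, homozygous 1 the furthest, and the log2 fold change of 0.53 ± 0.20 was 0.34 without homozygous 1. ZNF594, with 21 fingers and no KRAB pattern, was likewise highest in homozygous 1: 11.7 and 12.2, 15.5 and 12.1, and 19.7 and 13.96 CPM, a log2 fold change of 0.49 ± 0.22 that was 0.22 without homozygous 1. ZNF558 stood at 0.44 ± 0.25 and ZNF26 at 0.42 ± 0.15.

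ZNF672, with 13 fingers and no KRAB pattern, had the largest negative difference, with 24.5 and 26.3 CPM in wild type, 21.1 and 22.1 in hemizygous and 15.7 and 19.3 in homozygous samples. Its 3 genotypes were separate, in the reverse order of ZNF600. The log2 fold change was -0.54 ± 0.16 for homozygous and -0.23 ± 0.15 for hemizygous against wild type. Smaller differences were found for ZNF704 (-0.37 ± 0.25), ZNF592 (-0.31 ± 0.20), ZNF740 (-0.27 ± 0.12), ZNF710 (-0.27 ± 0.16) and ZNF275 (-0.22 ± 0.18). ZNF592 works with ZNF532 and ZNF687 in the ZMYND8 complex, and those partners had log2 fold changes of 0.01 and 0.06. Without wild type 1 the value for ZNF704 was -0.11 and that for ZNF275 -0.11, and without wild type 2 that for ZNF710 was -0.08. ZNF740 overlaps CSAD on the opposite strand, and ZNF710 overlaps ZNF710-AS1, so their reads cannot be told apart from those genes.

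Between the mutant genotypes, ZNF559 differed most. It stood at 18.9 and 18.2 CPM in wild type, 19.6 and 8.98 in hemizygous and 26.2 and 22.5 in homozygous samples. Hemizygous 1 was at the wild-type level and hemizygous 2 below it, so the low value was seen in 1 sample only. With 2 samples that differ, a change of the sample cannot be told apart from one of the genotype. The log2 fold change for homozygous against hemizygous was 0.77 ± 0.34, and 0.31 without hemizygous 2. ZNF559 lies at chr19:9323772-9351162 (plus strand), and shares 13.2% of its exon words with the readthrough gene ZNF559-ZNF177. ZNF560 lies within 200 kb of it on the opposite strand and was low in the other hemizygous sample.

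The other positive differences without overlap in that comparison were in ZNF558 (0.59 ± 0.25), ZNF160 (0.45 ± 0.20), ZNF276 (0.35 ± 0.20) and ZNF839 (0.33 ± 0.22), and the negative ones in ZNF704 (-0.49 ± 0.25), ZNF322 (-0.39 ± 0.34), ZNF664 (-0.27 ± 0.16) and ZNF644 (-0.22 ± 0.15). ZNF276 overlaps FANCA, and ZNF839 overlaps CINP, on the opposite strand. Several of these rest on 1 hemizygous sample. Without hemizygous 1 the value was 0.16 for ZNF276, 0.11 for ZNF839, -0.19 for ZNF704 and -0.02 for ZNF322, and without hemizygous 2 it was 0.33 for ZNF558.

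Spread between the 2 samples of a genotype was of the same order as the differences between genotypes. The highest of the 6 samples was a median of 1.32 times the lowest for the ZNF genes, and 1.33 times for all genes with at least 10 CPM. It reached 2-fold in 8 ZNF genes (2.77%, against 4.78% of those genes), and its maximum was 2.92, in ZNF559. ZNF559 was also the only ZNF gene with more than 2-fold between the samples of a genotype, against 2.56% of genes. The genes with the largest spread within genotypes were ZNF107, ZNF106, ZNF860, ZNF697 and ZNF778. ZNF106, an RNA-binding protein, stood at 178 and 109 CPM in wild type, 200.4 and 105 in hemizygous and 141 and 98.4 in homozygous samples, so replicate 1 was higher in every genotype. Replicate 1 was higher in all 3 genotypes for 115 of the 289 genes and replicate 2 for 61. Among the 10035 genes with at least 10 CPM the numbers were 3751 and 2372. The same replicate was higher in all 3 genotypes for 60.9% of the ZNF genes and 61.0% of those genes, so this is no trait of the ZNF genes.

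Although no single gene stood out in the edgeR test, more ZNF genes lay above wild type than below it. In hemizygous samples 184 of 289 (63.7%) had a higher fitted level, with a median log2 fold change of 0.05 and a range of -0.38 to 0.94, against 47.9% of all genes with at least 10 CPM. In homozygous samples it was 185 (64.0%), with a median of 0.05 and a range of -0.54 to 0.87, against 45.2%. These comparisons share their wild-type samples. Between homozygous and hemizygous samples 158 (54.7%) were higher, with a median of 0.01, against 46.2%. The summed level of all 289 genes was 12066 and 11848 CPM in wild type, 12714 and 12217 in hemizygous and 12847 and 12138 in homozygous samples.

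Genes whose samples did not overlap leaned the same way. Hemizygous samples lay wholly above wild type for 52 ZNF genes (18.0%, background 6.9%) and wholly below for 11 (3.81%, background 8.74%). Homozygous samples lay wholly above wild type for 65 (22.5%, background 12%) and wholly below for 18 (6.23%, background 14.6%). Homozygous samples lay wholly above hemizygous ones for 39 (13.5%, background 9.03%) and wholly below for 19 (6.57%, background 9.96%). With 2 samples against 2, no exact permutation p can be below 0.333, so no single gene can be called from such a gap.

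The size of this lean depended on the samples used, and more so in homozygous than in hemizygous cells. Without hemizygous 1, 163 genes (56.4%) were above wild type in the hemizygous comparison, against 45.2% of all genes with at least 10 CPM, with a median log2 fold change of 0.03 against -0.02. Without homozygous 1, 137 (47.4%) were above wild type in the homozygous comparison, against 41.0%, and the median log2 fold change was -0.0141 against -0.05. The direction of the homozygous median therefore turned with 1 library. With all samples and the replicate number as a block, 61.9% of the ZNF genes were above wild type in hemizygous and 65.4% in homozygous cells. Ribosomal protein genes held 4.799% and 5.56% of counts in wild type, 4.17% and 5.94% in hemizygous and 5.38% and 6.25% in homozygous samples, lower in replicate 1 each time, and the part of this difference in the lean was not tested.

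The lean was larger among genes with a KRAB pattern. Of the 180 KRAB genes, 130 (72.2%) were above wild type in hemizygous and 126 (70.0%) in homozygous cells, with a median log2 fold change of 0.07 in each. Of the 108 genes without the pattern, 53 (49.1%) and 58 (53.7%) were above, with medians of -0.01 and 0.02. Without hemizygous 1, KRAB genes were at 55.6% and the others at 57.4%, so the order turned. Without homozygous 1 they were at 46.1% and 49.1%. With mutant replicate 2 alone set against both wild-type samples, the higher share of KRAB genes was therefore not seen in either mutant genotype. Without wild type 2 the shares of KRAB and other genes were 63.9% and 63.0% in hemizygous cells. In homozygous cells they were 61.7% and 62.0%. Without wild type 1 the shares were 76.1% and 46.3% in hemizygous and 83.9% and 53.7% in homozygous cells. These fits with a sample left out did not match samples by replicate number. With all samples and the replicate number as a block, the shares were 70.0% and 48.1% in hemizygous cells. In homozygous cells that fit gave 70.6% and 56.5%. The difference between KRAB and other genes was not tested.

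Chromosome 19 genes had similar shares. Of 137, 102 (74.5%) were above wild type in hemizygous and 100 (73.0%) in homozygous cells, against 53.9% and 55.9% of the 152 on other chromosomes. Most of the KRAB genes lie there, 118 of 180, and among these 79.7% and 72.9% were above, against 58.1% and 64.5% of the 62 KRAB genes elsewhere. The 19 chromosome 19 genes without a KRAB pattern had 42.1% above in hemizygous and 73.7% in homozygous samples. Without hemizygous 1 and homozygous 1 the chromosome 19 shares were 59.1% and 48.2%. With all samples and the replicate number as a block they were 73.0% and 74.5%, against 52.0% and 57.2% on other chromosomes.

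**Figure D3:**
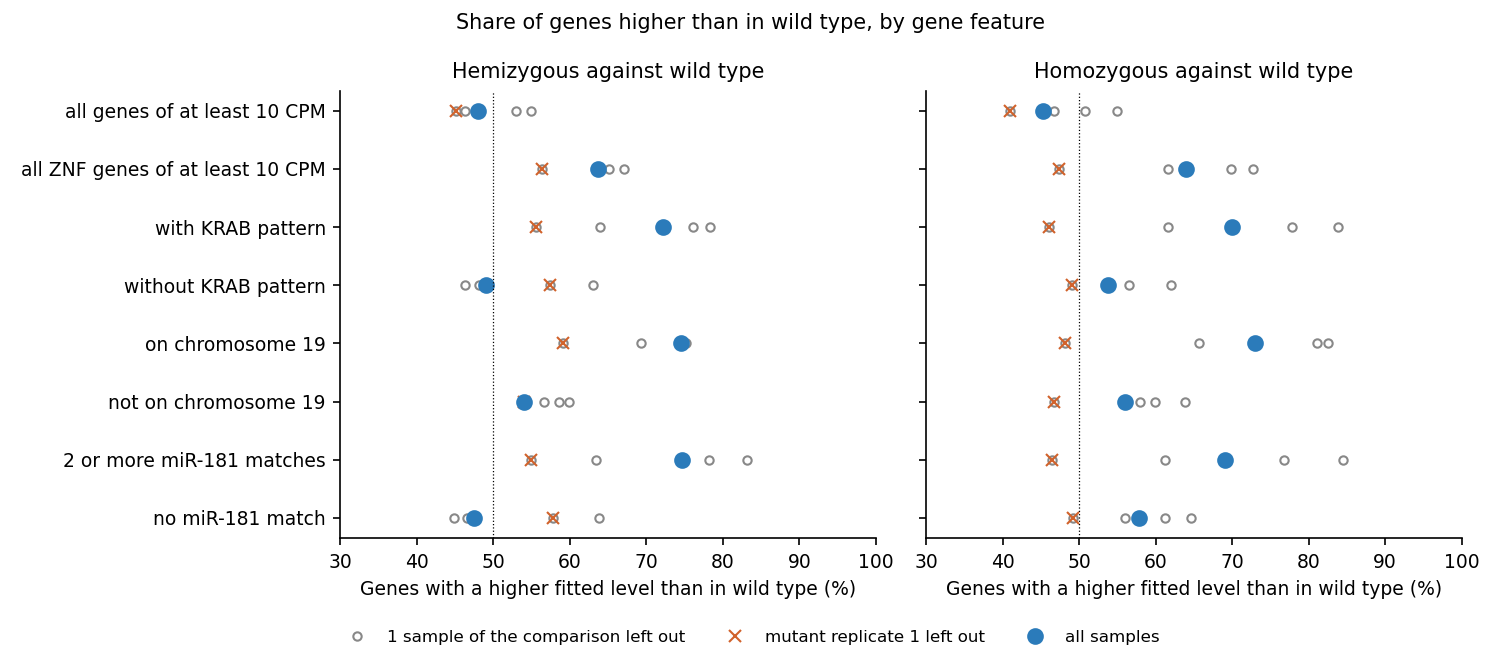
Share of genes with a higher fitted level than in wild type (horizontal axis, %) for groups of expressed ZNF genes and for all genes of at least 10 CPM, in hemizygous (left) and homozygous (right) samples; filled circles use all samples, open circles leave out 1 sample of the comparison, and crosses mark the fit without mutant replicate 1. With all samples KRAB genes are at 72.2% and 70.0%; without mutant replicate 1 they are at 55.6% and 46.1%.

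Along chromosome 19 the stretches differed. In the cluster at chr19:19668796-21852125, which holds ZNF90, 17 of 17 expressed ZNF genes were above wild type in hemizygous samples (median log2 fold change 0.13) and 14 in homozygous samples (0.11). In the cluster at chr19:51571298-53580269, which holds ZNF600, ZNF160 and ZNF677, 30 of 35 were above in hemizygous and 28 in homozygous samples, with medians of 0.09 and 0.10. In the telomeric cluster at chr19:55576770-58302805 the counts were 27 and 31 of 36. The cluster at chr19:7515292-9675086, with ZNF559 and ZNF121, went the other way in hemizygous samples, where 3 of 11 were above wild type. Without hemizygous 1 the counts above wild type in hemizygous samples were 11 of 17, 20 of 35 and 24 of 36 in the clusters of ZNF90, of ZNF600 and at the telomere. Without homozygous 1 the counts in homozygous samples were 8 of 17, 17 of 35 and 19 of 36.

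The neighbours of ZNF677 and ZNF600 had smaller differences. Within 200 kb of ZNF677, ZNF845 had a log2 fold change of 0.17 ± 0.25 in hemizygous samples, ZNF347 of 0.05 ± 0.30, ZNF665 of -0.01 ± 0.20, ZNF415 of 0.11 ± 0.17 and ZNF160 of 0.08 ± 0.20. Within 200 kb of ZNF600, ZNF611 stood at 0.13 ± 0.25 in homozygous samples, ZNF28 at 0.03 ± 0.23, ZNF83 at 0.06 ± 0.15 and ZNF468 at 0.10 ± 0.20. ZNF701 was at 0.24 ± 0.16 and ZNF816 at 0.23 ± 0.16. The pseudogenes ZNF137P, ZNF321P and ZNF702P were at 0.38 ± 0.16, 0.26 ± 0.27 and -0.54 ± 0.37. Near ZNF677 the pseudogene TPM3P9 was at 0.25 ± 0.19 in hemizygous samples. ZNF677 and ZNF600 were named in the rule for their differences, so their contrast with neighbours is a description. No measured neighbour had a log2 fold change as large as 0.94 in the first case or 0.87 in the second.

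**Figure D4:**
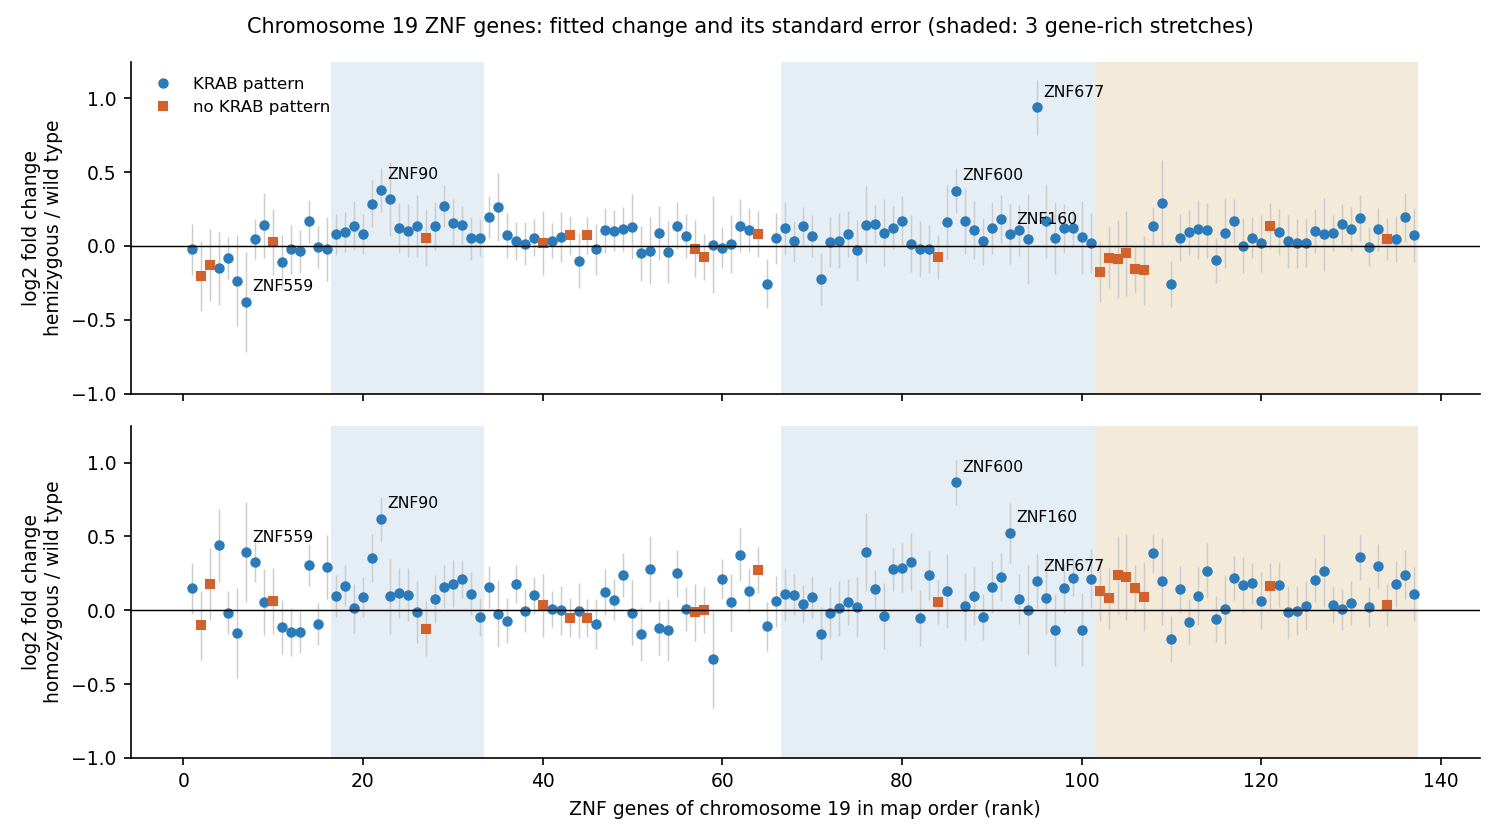
log2 fold change against wild type (vertical axis, error bars 1 SE) of the 137 expressed ZNF genes of chromosome 19 in map order (horizontal axis, rank), in hemizygous (top) and homozygous (bottom) samples; circles have a KRAB pattern and squares do not, and shading marks the stretches holding ZNF90 (left), ZNF600 with ZNF677 (middle) and the telomeric genes (right). ZNF677 in the top panel (0.94) and ZNF600 in the bottom panel (0.87) stand above their neighbours.

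The count of miR-181 matches in the coding sequence was set beside the same values. Of 142 genes with 2 or more TGAATGT matches, 106 (74.6%) were above wild type in hemizygous and 98 (69.0%) in homozygous cells. Of the 30 genes with 1 match it was 73.3% and 63.3%, and of the 116 with none 47.4% and 57.8%. Match count goes with KRAB status, since 118 of the 142 genes are KRAB genes. Without hemizygous 1 the order turned, with 54.9% of the genes with 2 or more matches and 57.8% of those with none above wild type. Without homozygous 1 the shares were 46.5% and 49.1%. With all samples and the replicate number as a block they were 72.5% and 45.7% in hemizygous cells. In homozygous cells that fit gave 69.7% and 60.3%. Among KRAB genes the shares were alike with 2 or more matches (73.7% and 69.5%) and with fewer (69.4% and 71.0%). Among genes without a KRAB pattern, 19 of 24 with 2 or more matches were above wild type in hemizygous samples, against 34 of 84 with fewer. Without hemizygous 1 the counts were 18 of 24 and 44 of 84. In homozygous samples they were 16 of 24 and 42 of 84, and 13 and 40 without homozygous 1. ZNF90 held 0 matches, and ZNF594 held 17.

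A second microRNA family was looked at because miR-302 is among the most abundant in human stem cells. Its seed match in the 3′ UTR, AGCACTT, was found in 83 of the genes. Of these 69.9% were above wild type in hemizygous and 62.7% in homozygous cells, against 61.0% and 64.4% of the 205 without it. The order of these groups thus turned between the genotypes.

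By known role, the genes that hold transposons silent gave no call. ZNF91 and ZNF93, which bind SVA and LINE-1 elements, stood at 69.7 and 60.2 CPM and at 48.1 and 48.7 CPM in wild type. In hemizygous samples ZNF91 stood at 74.9 and 61.6 and in homozygous samples at 62.9 and 60.8 CPM, and its genotypes overlapped. ZNF417 and ZNF587, which bind HERV-K, ranged over 17.9 to 21.1 and 65.5 to 73.5 CPM. Of 11 genes on this list 9 are among the 289, 0 passed the edgeR test, and 8 were above wild type in hemizygous and 6 in homozygous cells, with medians of 0.09 and 0.04.

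Genes tied to pluripotency gave 0 calls among 6. ZNF281, a partner of NANOG, stood at 111 and 91.0 CPM in wild type, 121 and 87.6 in hemizygous and 108 and 82.3 in homozygous samples. ZNF398, which acts with SMAD proteins, was among the steadiest, at 88.9 and 92.2, 91.0 and 93.0, and 98.3 and 89.2 CPM. ZNF322 stood at 22.6 and 12.2 CPM in wild type, 21.1 and 13.3 in hemizygous and 13.0 and 13.2 in homozygous samples. The 2 samples of wild type and of hemizygous cells differed by more than the genotypes did, and it shares 28.8% of its exon words with other loci. In this list 4 of 6 were above wild type in hemizygous and 3 in homozygous cells.

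Genes of chromatin complexes gave 0 calls among 9. ZNF217, part of the CoREST and LSD1 complexes, stood at 132 and 145 CPM in wild type, 150.4 and 159.9 in hemizygous and 163 and 147 in homozygous samples, wholly above wild type in both. ZNF827, which recruits the NuRD complex, stood at 66.9 and 72.4, 73.1 and 87.9, and 77.9 and 91.0 CPM, and its genotypes likewise did not overlap with wild type. ZNF274 brings SETDB1 to the 3′ ends of ZNF genes themselves. It stood at 22.5 and 25.71 CPM in wild type, 23.0 and 26.8 in hemizygous and 25.75 and 28.9 in homozygous samples, so homozygous samples lay just above wild type and hemizygous samples overlapped both.

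Genes with roles on RNA, ribosomes, ubiquitin or SUMO gave 0 calls among 11, with medians of -0.01 in both mutant genotypes. ZNF598, the ubiquitin ligase that marks collided ribosomes, stood at 54.8 and 57.5 CPM in wild type, 48.9 and 55.5 in hemizygous and 60.8 and 51.0 in homozygous samples. ZNF638, which helps silence unintegrated DNA, was the highest of them in fold against wild type, at 179 and 213, 204 and 243, and 228 and 255 CPM. Its homozygous samples lay above wild type, and its hemizygous samples overlapped it. ZNF706 stood lower in hemizygous samples, at 37.7 and 37.8 against 43.7 and 38.8 CPM.

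The machinery through which KRAB proteins act gave no call. Of 31 measured corepressor genes, 0 passed the edgeR test in any comparison, and 0 had an unadjusted p under 0.05. TRIM28 stood at 827 and 916 CPM in wild type, 862 and 823 in hemizygous and 904 and 805 in homozygous samples. SETDB1 stood at 61.9 and 67.3, 60.1 and 70.5, and 68.4 and 66.1 CPM, and all genotypes overlapped for both genes. In hemizygous samples 21 of 31 were above wild type (median 0.05), beside 130 of 180 KRAB genes. In homozygous samples 13 of 31 were (median -0.03), beside 126 of 180 KRAB genes. The shares of all genes with at least 10 CPM were 47.9% and 45.2%.

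Other zinc-finger families were counted for comparison. They were chosen by symbol and were not matched to the expressed ZNF genes by level. The 24 ZSCAN and ZKSCAN genes had 70.8% above wild type in hemizygous and 62.5% in homozygous cells. The 35 ZBTB genes had 54.3% and 48.6%, and the 18 ZFP genes had 22.2% and 33.3%. The 132 numbered ZNF genes under 10 CPM had 53.8% and 69.7% above. Most ZFP genes lay below wild type, and the homozygous share of the weakly expressed ZNF genes was 53.03% without homozygous 1. These differences between families were not tested.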

How the data were processed

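RNA-seq values came from 6 libraries of H1 cells. Per the submitters' processing notes, the authors used cutadapt and HISAT2 with the hg38 build. What counted the reads, and on which annotation, is not given in the sources used. Values in the deposited table are raw counts, not normalized, and every gene exceeds 0.5 CPM in at least 3 samples. The members and gene lists were chosen with earlier results of these data known.

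All 16199 genes were fitted with edgeR 4.0.16 in R 4.3.3 (TMM, filterByExpr, which removed 0 genes, quasi-likelihood test, 1 factor of 3 genotypes, 3 residual degrees of freedom, Benjamini-Hochberg adjusted p under 0.05). DESeq2 1.42.0 and limma 3.58.1 (voom) were alternatives, with each sample left out, other scalings, other filters and the replicate number as a block. Replicate numbers come from the titles. Same-numbered samples deviated together across genes (correlations 0.741, 0.357 and 0.476), so the numbers were treated as a pairing, although with 2 numbers this rests on little. Tests were checked on simulated data. Genes were matched to GENCODE v29 (15913 of 16199, and all 289 members), fingers and KRAB patterns were found in 1 coding transcript per gene, and promoters and microRNAs came from RefSeq. Genes were named by rule: ZNF677 and ZNF600, the 5 most abundant, the 5 with the largest replicate ratio, the 6 largest rises and falls without overlap in each comparison, members of role lists, and neighbours within 200 kb. Figures used matplotlib 3.10.9 under Python 3.11.15.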

Additional observations from a re-analysis of the deposited data

How the results depend on the processing

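The count of called ZNF genes was 0 in each comparison under edgeR with other scalings, filters, sample sets, each sample left out and the replicate block, and under limma-voom. DESeq2 gave 1 (ZNF677) for hemizygous and 1 (ZNF600) for homozygous against wild type, and DESeq2 with the replicate block gave 1, 2 and 1 in the 3 comparisons, the last for homozygous against hemizygous. Over all genes DESeq2 called 7, 10 and 10 and, with the replicate block, 23, 126 and 24; edgeR with the pairing as a block called 1, 0 and 1. A gap of 1.5-fold in place of 2-fold gave 1 gene in hemizygous and 1 in homozygous samples against wild type. With 1 sample left out, the median log2 fold change of the ZNF genes ran from 0.03 to 0.08 for hemizygous and from -0.0141 to 0.12 for homozygous against wild type, and from -0.0445 to 0.0656 between the mutant genotypes. The lowest values of the last 2 were without homozygous 1, and the highest without homozygous 2; the cause was not tested. Alternatives gave 555 values for ZNF677, ZNF600 and the 6 largest rises and falls without overlap in each comparison. Of these, 549 kept their direction and side of the threshold, 6 passed it under DESeq2 and 0 reversed. Nearly all were picked because their samples do not overlap, so leaving a sample out could hardly reverse them. The 0 reversals are therefore no support. Genes named only by role list, abundance or replicate ratio were not among these values. A lone sample left in a genotype is assumed to vary like the others. Whether greater depth would change these comparisons was not tested.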
